A study of Homo sapiens with 24 samples.

Results

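The report describes 10 genes of immunoproteasome assembly and of antigenic peptide processing among the 28907 gene symbols of the deposited expression table: PSMB8, PSMB9, PSMB10, TAP1, TAP2, TAPBP, ERAP1, ERAP2, B2M and NLRC5. They were chosen by function, and ERAP1 was also selected on its measured difference between siVRK1 and siCtrl libraries, where it is far lower with siVRK1. The fall of PSMB9 under luteolin in A2780 cells was also known when the list was made. All 10 were found in the table. Levels are TPM, the share of transcripts corrected for their length and scaled to the same total in each library, added over the transcripts of each symbol.

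RNA was sequenced from ES2 and A2780, established human ovarian cancer cell lines whose genotype is labelled WT. Each line was given siVRK1 (an siRNA against the nuclear kinase VRK1), siCtrl (a control siRNA), luteolin (a plant flavone) or DMSO (its solvent), with 3 libraries in each of the 8 groups. Neither the number of siRNAs nor the luteolin dose or the times could be read from the labels. Nothing states that the 3 libraries of a group are separate cultures, and the p-values then rest on a spread that may be technical.

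VRK1 itself had 2.92, 4.08 and 4.20 TPM in the ES2 siVRK1 libraries and between 62.2 and 66.2 TPM in the ES2 siCtrl libraries. In A2780 VRK1 had 11.3, 9.41 and 7.98 TPM with siVRK1 and between 53.6 and 55.2 TPM with siCtrl. A library had 11792 to 12862 genes at 1 TPM or more. The table keeps no record of sequencing depth. The Müllerian marker PAX8 stayed at or below 0.0329 TPM in A2780 and between 0.660 and 2.99 TPM in ES2. The mucin MUC16 stayed at or below 0.0199 TPM in A2780 and was listed at 0 in ES2. The keratin KRT7 reached 0.0313 TPM in A2780 and 323 to 501 TPM in ES2. WT1 reached 0.121 TPM in A2780 and 1.14 to 4.12 TPM in ES2. KRT8 had 0.266 to 1.42 TPM in A2780 and 46.7 to 91.9 TPM in ES2. KRT18 had 3.11 to 9.35 TPM in A2780 and 197 to 540 TPM in ES2. EPCAM went the other way, with 0.682 to 2.01 TPM in A2780 and 0 to 0.293 TPM in ES2. Of the 8 leukocyte markers, a class of cells that normally carries immunoproteasome, the T cell marker CD3E was listed at 0 in each library and the pan-leukocyte gene PTPRC did not exceed 0.569 TPM. The 7 leukocyte markers other than CD68 added to between 0.512 and 4.42 TPM in a library. The lysosomal protein CD68, which other cells also make, reached 78.4 TPM in ES2 and set the sum of the whole list there, at 71.5 to 79.0 TPM with siVRK1 and 36.0 to 42.3 TPM with siCtrl, 58.0 to 65.5 TPM with luteolin and 57.3 to 67.5 TPM with DMSO. The corresponding sums in A2780 were 2.61 to 3.69 TPM with siVRK1 and 2.87 to 4.48 TPM with siCtrl, 6.41 to 8.53 TPM with luteolin and 3.79 to 4.09 TPM with DMSO. In bulk RNA, fewer cells of a kind and less RNA per cell cannot be told apart.

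Cells show fragments of their own proteins on MHC class I molecules. The proteasome cuts the proteins, TAP1 and TAP2 form the pump that carries the peptides into the endoplasmic reticulum, tapasin (the product of TAPBP) ties the pump to empty class I molecules, and ERAP1 and ERAP2 trim the peptides from their amino end. B2M is the invariant light chain of class I. Under interferon, the catalytic subunits PSMB8, PSMB9 and PSMB10 replace PSMB5, PSMB6 and PSMB7 in new proteasomes, which are then called immunoproteasomes. NLRC5 is a transactivator that raises transcription of class I genes and of several genes that serve them. Losing parts of this pathway is a known way for tumours to avoid killer T cells.

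Since interferon acts on many of these genes through the interferon-stimulated response element, the promoter windows of RefSeq (GRCh38.p14, 250 bases before to 50 after each start) were searched on both strands for GAAANNGAAA, its core repeat. A window was given for 9 of the 10 genes, NLRC5 being the exception, and 8 of the 9 held the repeat, against 4.38% of the 27305 genes with a window. PSMB9 was the one whose window did not hold these letters. The choice of genes did not use these letters. The repeat was searched because interferon acts on many of the genes, so the share is not independent of their choice by function. The stretches of 40 bases around the match are shown because nearly the whole list shares the feature. They run 5′ to 3′ on the strand of the gene, and the capitals mark the match.
PSMB8, chr6:32844027-32844066, minus strand: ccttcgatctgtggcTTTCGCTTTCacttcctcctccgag
PSMB10, chr16:67936847-67936886, minus strand: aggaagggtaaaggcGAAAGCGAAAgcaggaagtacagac
TAP1, chr6:32853808-32853847, minus strand: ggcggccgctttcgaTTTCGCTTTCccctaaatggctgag
TAP2, chr6:32838773-32838812, minus strand: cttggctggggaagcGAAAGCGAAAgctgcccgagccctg
TAPBP, chr6:33314068-33314107, minus strand: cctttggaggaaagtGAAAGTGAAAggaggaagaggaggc
ERAP1, chr5:96807919-96807958, minus strand: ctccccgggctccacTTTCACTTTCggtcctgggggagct
ERAP2, chr5:96876455-96876494, plus strand: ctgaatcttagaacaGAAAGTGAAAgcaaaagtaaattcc
B2M, chr15:44711364-44711403, plus strand: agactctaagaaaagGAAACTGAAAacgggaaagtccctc

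The repeat lay within 25 bases of the start in PSMB8, PSMB10, TAPBP, ERAP1 and ERAP2, at 1, −16, −9, 7 and −25 bases, counted to its centre. It lay further upstream in TAP2, TAP1 and B2M, at −53, −123 and −133 bases. TAP1, TAPBP and B2M each held a second match that overlaps the one shown. A match is a description of the letters, and no factor binding was measured.

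The genes sit in a few places. TAP2, PSMB8, TAP1 and PSMB9 lie side by side in the class II region of the MHC on chromosome 6, with annotated spans from 32821833 to 32859585 (GRCh38, GENCODE release 29), and TAPBP lies from 33299694 to 33314387. The RefSeq starts of TAP1, on the minus strand, and PSMB9, on the plus strand, are 488 bases apart, and the annotated span of PSMB9 overlaps that of TAP1 by 8770 bases. ERAP1 (chromosome 5, 96760810 to 96808100, minus strand) overlaps the last part of the calpastatin gene CAST by 18786 bases, with ERAP2 and the related peptidase LNPEP beyond it. Whether strand was used in counting is not given in the sources used here, so reads from the shared bases of overlapping genes cannot be told apart. B2M lies on chromosome 15 from 44711487 to 44718877, NLRC5 on chromosome 16 from 56989485 to 57083531 and PSMB10 on chromosome 16 from 67934502 to 67937087. The table lists 27 to 51 transcripts each for PSMB8, PSMB9, TAP1, TAP2 and TAPBP, most with IDs that are not in the GENCODE release used here, and many of them with identical values in each library, so only their sum per gene is used.

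**Figure D1:**
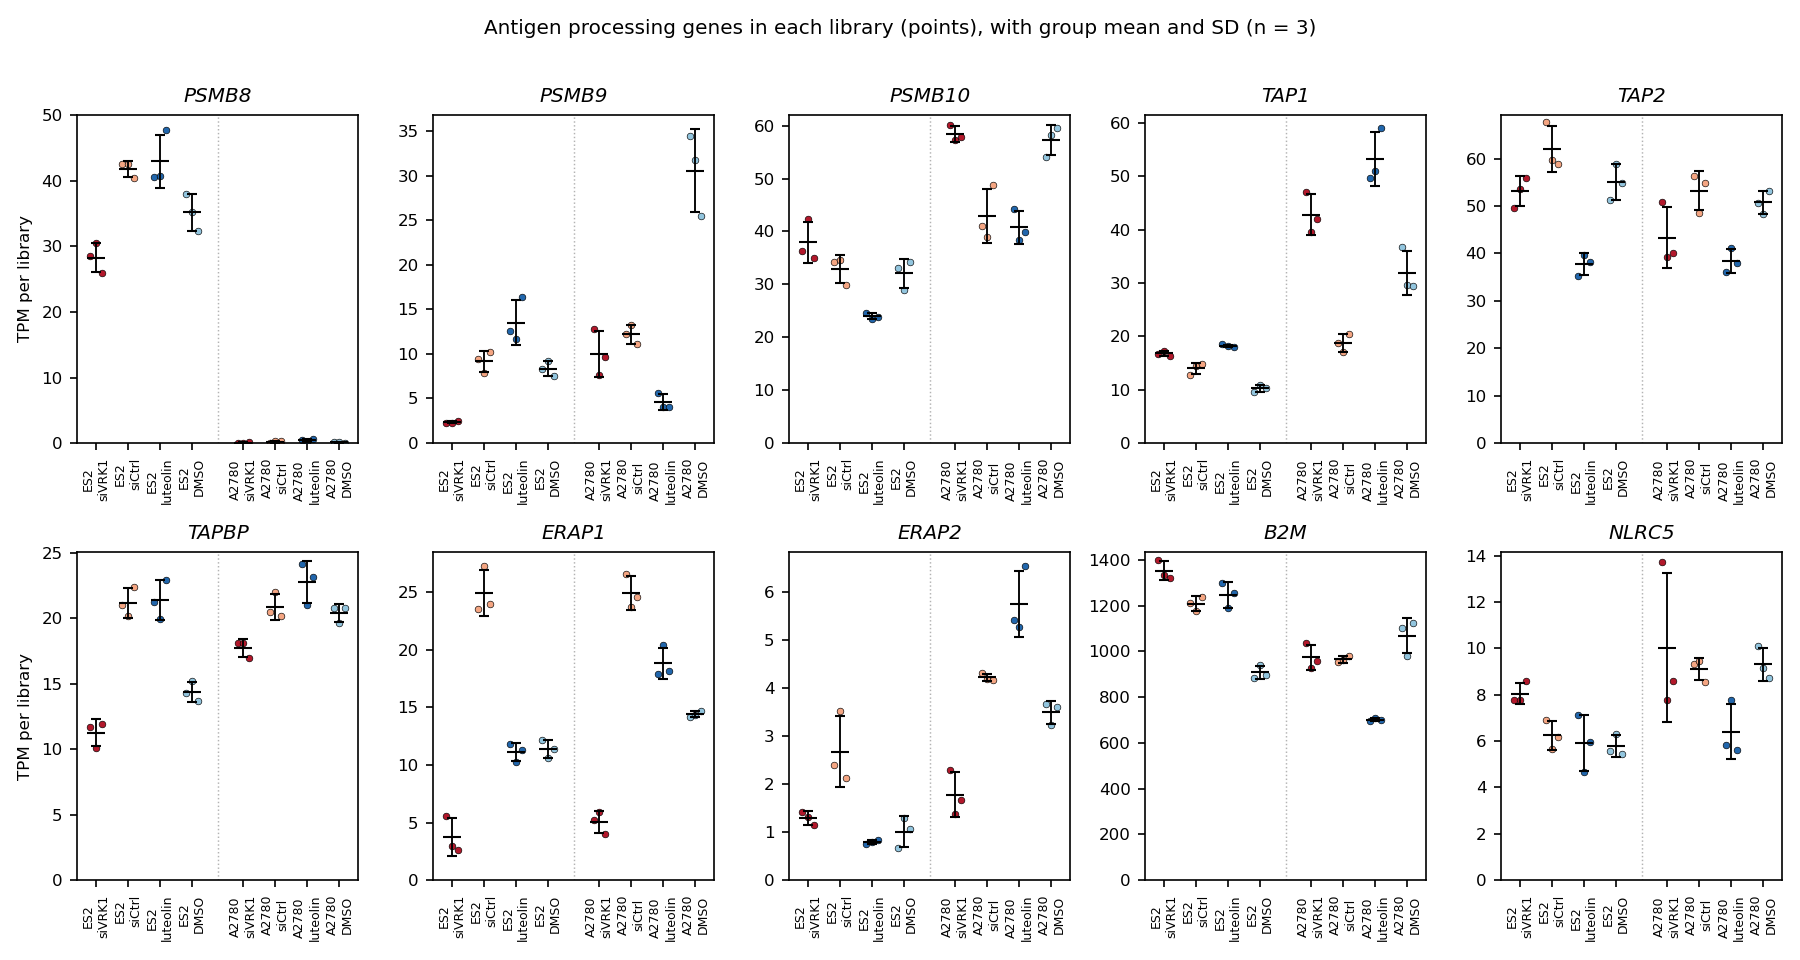
TPM (vertical axes, from 0) of the 10 genes in each library (points), by group, with the group mean and SD (n = 3), ES2 on the left and A2780 on the right of each panel. PSMB8 lies between 26.0 and 47.7 TPM in ES2 and at or below 0.637 TPM in A2780, PSMB9 is highest in A2780 DMSO, and ERAP1 is lowest in the siVRK1 groups of both lines.

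The levels of the list spanned a wide range per length. B2M was the most abundant, between 697 and 1400 TPM over the 24 libraries. TAP2 lay between 35.3 and 67.6 TPM and PSMB10 between 23.5 and 60.2 TPM. TAP1 lay between 9.57 and 59.0 TPM, TAPBP between 10.1 and 24.1 TPM, ERAP1 between 2.61 and 27.2 TPM and PSMB9 between 2.23 and 34.4 TPM. NLRC5 (4.68 to 13.7 TPM) and ERAP2 (0.660 to 6.54 TPM) were the lowest of those found in both lines. From the lowest to the highest library PSMB9 changed 15.4-fold, ERAP1 10.4-fold and ERAP2 9.91-fold, against 2.01-fold for B2M and 1.92-fold for TAP2.

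The largest difference of the list between the control groups of the lines was that of PSMB8, the inducible counterpart of PSMB5 with chymotrypsin-like activity. It had between 26.0 and 47.7 TPM in the 12 ES2 libraries and between 0 and 0.637 TPM in the 12 A2780 libraries, and was listed at 0 in 1 A2780 library. The lines did not overlap. PSMB8 passed the low-value filter of a fit over both lines only through ES2, so no test is given for it. Relative to the median of all genes, it was 5.26 ± 0.09 higher in ES2 controls than in A2780 controls on the log2(TPM + 1) scale, where siCtrl and DMSO weigh equally and the value after ± is the standard error of the fit. The class I heavy chain gene HLA-B was split the other way, with group means of 3.44 to 9.74 TPM in ES2 and 65.7 to 111 TPM in A2780. Heavy chain genes are near-identical in parts, so the division of reads between them is uncertain.

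The control groups include the siCtrl libraries on which ERAP1 was selected, so it too is given without a test there (−0.16 ± 0.11 in ES2 minus A2780, as deposited). Of the 8 other genes of the list, 7 were called at an adjusted p of 0.05, 1 higher and 6 lower in ES2, against 83.7% of all genes called (34.3% higher, 49.4% lower). The share is near this background. The median of all genes stood at −0.17 in this comparison and at −0.03 after median-of-ratios scaling. That scaling also moved the share of higher calls among all calls from 40.9% to 48.2%, so values are given relative to the median. The adjusted p-values belong to the differences before the median is taken off. TAP1 had 12.8, 14.4 and 14.8 TPM with siCtrl and 9.57, 10.8 and 10.3 TPM with DMSO in ES2, against 18.7, 17.0 and 20.5 TPM with siCtrl and 36.7, 29.5 and 29.4 TPM with DMSO in A2780. ES2 lay below A2780 throughout, by −0.80 ± 0.06 (limma adjusted p = 6.46e-12). PSMB9 was lower in ES2 by −0.90 ± 0.11 (limma adjusted p = 1.64e-08), ERAP2 by −0.68 ± 0.10 (7.29e-08) and NLRC5 by −0.38 ± 0.11 (0.000115). The A2780 DMSO libraries used here are also part of the PSMB9 fall that was known when the list was made. The PSMB9 test here, which is among the calls counted above, thus gives no independent support. TAP2 was higher in ES2 by 0.33 ± 0.06, with overlapping libraries. As deposited the TAP2 difference was 0.17 (limma adjusted p = 0.0193). That call was lost when ES2 siCtrl 1, ES2 DMSO 2 or A2780 siCtrl 2 was left out (adjusted p = 0.0549 to 0.0625). After median-of-ratios scaling TAP2 was called higher as well (0.32). TAPBP was called lower as deposited (−0.23, limma adjusted p = 0.000295) but lay at −0.06 ± 0.05 relative to the median. Median-of-ratios scaling ended that call (0.118). B2M was not called (limma adjusted p = 0.200), but it was called higher in ES2 after median-of-ratios scaling (0.20, adjusted p = 4.81e-07). The call of PSMB10 turned with the transcripts counted and is given below.

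Luteolin was set against DMSO to ask what the compound does in each line. In ES2 cells the inducible subunits PSMB8 and PSMB9, the pump subunit TAP1, tapasin and B2M rose with luteolin, while PSMB10 and TAP2 fell. In A2780 cells PSMB9, PSMB10, TAP2, B2M and NLRC5 fell, and TAP1 and ERAP2 rose. TAP1 up, TAP2 down and PSMB10 down were thus called in each line, and PSMB9 and B2M were called in opposite directions. Of the 10 genes, 7 were called in ES2 (5 higher, 2 lower), against 48.4% of all genes (22.6% higher, 25.8% lower). Of the 9 tested in A2780, 8 were called (3 higher, 5 lower), against 65.5% of all genes; 45.6% of all genes were called higher and 19.9% lower. In A2780 the median of all genes stood at 0.22, and median-of-ratios scaling moved it to −0.02 and the share of higher calls among all calls from 69.7% to 46.3%. A2780 values are therefore given relative to that median, and their adjusted p-values belong to the difference before the median is taken off. In the test of the luteolin effect between the lines, which used all 24 libraries, 4 of the 9 genes other than PSMB8 were called, 3 higher and 1 lower in ES2. Of all genes 50.5% were called there, 14.7% higher and 35.8% lower, and its median stood at −0.20, so these differences too are given relative to the median. Their adjusted p-values likewise belong to the differences before the median is taken off.

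**Figure D2:**
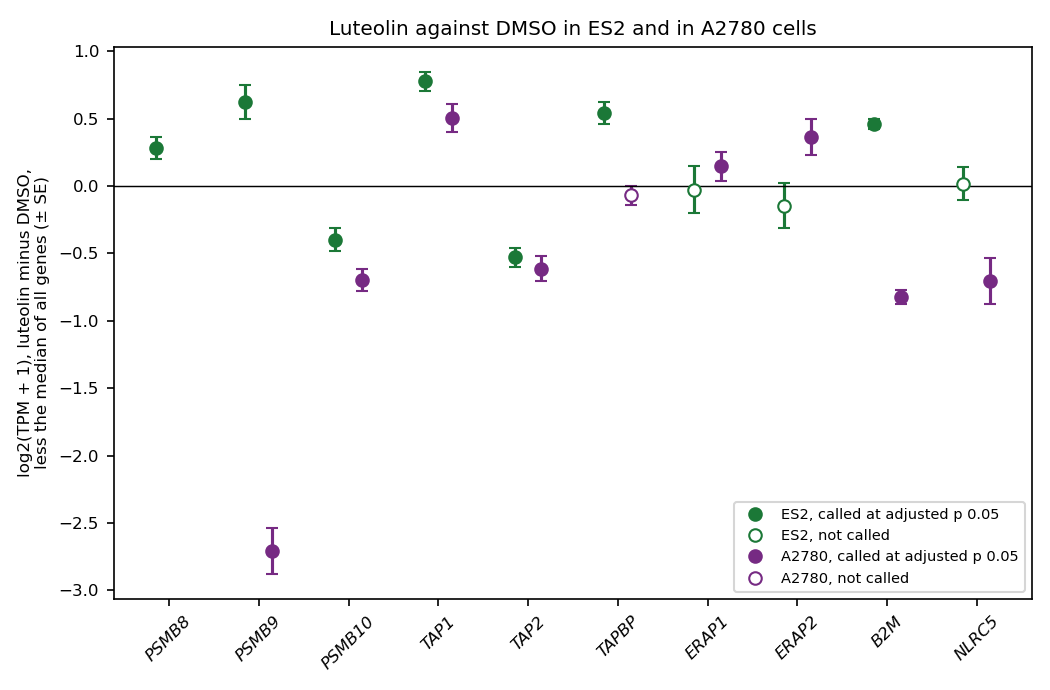
Difference in log2(TPM + 1) between luteolin and DMSO libraries (vertical axis, less the median of all genes, ± SE of the fit) for each gene (horizontal axis), ES2 in green left of A2780 in purple; filled points were called at an adjusted p of 0.05. PSMB9 lies at −2.71 in A2780 and above 0 in ES2, B2M lies on opposite sides of 0 in the lines, and PSMB8 has no A2780 point because it was below the filter there.

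PSMB9 is the inducible counterpart of PSMB6 and lacks its cleavage after acidic residues. In ES2 it had 12.5, 11.6 and 16.4 TPM with luteolin, against 8.33, 9.17 and 7.57 TPM with DMSO, and the groups did not overlap (0.62 ± 0.13, limma adjusted p = 0.00141). In A2780 PSMB9 had 5.67, 4.07 and 4.10 TPM with luteolin, against 34.4, 31.8 and 25.5 TPM with DMSO. Each A2780 luteolin library lay far below each A2780 DMSO library, by −2.71 ± 0.17 (limma adjusted p = 7.07e-08), a fall already known when the list was made, so that this test and that of the difference between the lines give no independent support. The luteolin effect in ES2 minus that in A2780 was 3.31 ± 0.22 (limma adjusted p = 1.05e-09).

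PSMB8 rose slightly in ES2, with 40.6, 40.7 and 47.7 TPM with luteolin, against 38.0, 35.3 and 32.3 TPM with DMSO (0.28 ± 0.08, limma adjusted p = 0.0112). The groups did not overlap, but the call was lost without ES2 DMSO 3 (adjusted p = 0.0525). In A2780 PSMB8 had 0.518, 0.122 and 0.637 TPM with luteolin and 0.124, 0.162 and 0.0775 TPM with DMSO, all below the filter.

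PSMB10, the inducible counterpart of PSMB7, fell in both lines. It had 24.6, 23.5 and 23.9 TPM with luteolin in ES2, against 33.1, 28.9 and 34.2 TPM with DMSO (−0.40 ± 0.08, limma adjusted p = 0.00187). In A2780 the luteolin libraries had 44.3, 38.3 and 39.8 TPM and the DMSO libraries 54.1, 58.2 and 59.6 TPM (−0.70 ± 0.08, limma adjusted p = 0.000185). In neither line did luteolin and DMSO overlap.

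The constitutive subunits moved as well, so the share of the inducible subunit was taken at each catalytic position. PSMB6 fell in ES2 (187 TPM with luteolin against 286 TPM with DMSO) and in A2780 (196 against 309 TPM), and PSMB5 fell in both lines too (188 against 259 TPM in ES2, 402 against 511 TPM in A2780). PSMB7 fell in A2780 (244 against 288 TPM) and was not called in ES2 (249 against 257 TPM, limma adjusted p = 0.353). At the beta 1 position PSMB9 made up 6.73% ± 1.24 of PSMB9 plus PSMB6 with luteolin in ES2 and 2.84% ± 0.296 with DMSO (SD, n = 3 each). In A2780 it made up 2.29% ± 0.443 with luteolin and 8.98% ± 0.870 with DMSO, and the order of the treatments was thus opposite in the lines. At beta 5 PSMB8 made up 18.7% ± 1.79 of PSMB8 plus PSMB5 with luteolin in ES2 and 11.95% ± 0.995 with DMSO, and at most 0.163% in any A2780 luteolin or DMSO library. At beta 2 the share was taken from the sum over all PSMB10 transcripts, of which protein-coding ones made up 27.0% with luteolin and 30.5% with DMSO in ES2 and 14.8% with luteolin and 20.8% with DMSO in A2780. This share was lower with luteolin in both lines, at 8.78% ± 0.272 against 11.1% ± 1.06 with DMSO in ES2 and 14.3% ± 1.54 against 16.6% ± 0.925 with DMSO in A2780, where the libraries overlapped.

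**Figure D3:**
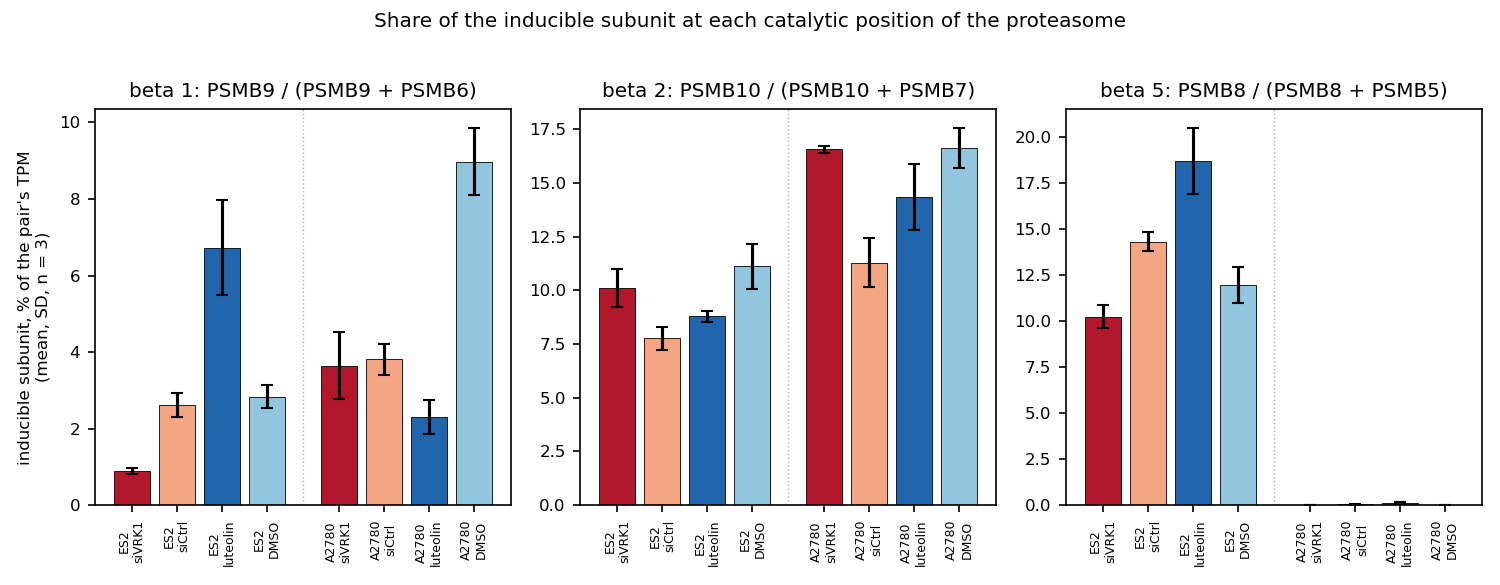
Share of the inducible subunit in the summed TPM of the inducible and constitutive subunit (vertical axes, percent from 0) at the beta 1, beta 2 and beta 5 positions, by group; bars are means and whiskers SD (n = 3). The beta 1 share is 8.98% in A2780 DMSO and 0.895% in ES2 siVRK1, and the beta 5 bars of A2780 barely rise above the axis. The beta 2 bars use the sum over all PSMB10 transcripts, of which coding ones made up 10.03% to 67.2% in group means.

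TAP1 rose with luteolin in both lines while its partner TAP2 fell. TAP1 had 18.5, 18.1 and 18.0 TPM with luteolin in ES2, against 9.57, 10.8 and 10.3 TPM with DMSO (0.77 ± 0.07, limma adjusted p = 1.99e-06). The A2780 libraries had 49.6, 51.0 and 59.0 TPM with luteolin, against 36.7, 29.5 and 29.4 TPM with DMSO (0.51 ± 0.10, limma adjusted p = 4.77e-05). TAP2 had 35.3, 39.7 and 38.2 TPM with luteolin in ES2, against 51.3, 58.9 and 54.9 TPM with DMSO (−0.53 ± 0.07, limma adjusted p = 6.50e-05). In A2780 TAP2 had 36.1, 41.1 and 38.0 TPM with luteolin, against 50.7, 48.4 and 53.2 TPM with DMSO (−0.61 ± 0.09, limma adjusted p = 0.00258). In each of the 4 comparisons the groups were apart. The ratio of TAP1 to TAP2 was 0.484 ± 0.0355 with luteolin and 0.186 ± 0.00252 with DMSO in ES2, and 1.39 ± 0.158 with luteolin and 0.629 ± 0.0870 with DMSO in A2780 (SD, n = 3 each). Neither gene's luteolin effect was called different between the lines (limma adjusted p = 0.765 for TAP1 and 0.379 for TAP2, with differences of 0.25 ± 0.13 and 0.06 ± 0.12 relative to the median).

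TAPBP rose in ES2, with 21.2, 19.9 and 23.0 TPM with luteolin, against 14.3, 15.2 and 13.6 TPM with DMSO (0.54 ± 0.08, limma adjusted p = 0.000142). The A2780 levels were 24.1, 21.0 and 23.1 TPM with luteolin, against 20.8, 19.6 and 20.8 TPM with DMSO, a difference that was not called (limma adjusted p = 0.0765) and that lay at 0.15 as deposited and at −0.07 relative to the median of all genes. It was called without A2780 luteolin 2 (adjusted p = 0.0307). The luteolin effect of TAPBP was higher in ES2 than in A2780 by 0.59 ± 0.10 (limma adjusted p = 0.00307).

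B2M moved in opposite directions. It had 1299, 1188 and 1255 TPM with luteolin in ES2, against 886, 941 and 899 TPM with DMSO (0.46 ± 0.04, limma adjusted p = 1.35e-06). The A2780 levels were 697, 708 and 699 TPM with luteolin, against 1102, 982 and 1125 TPM with DMSO (−0.82 ± 0.05, limma adjusted p = 5.58e-07). The groups were apart in each line, and the effect in ES2 exceeded that in A2780 by 1.26 ± 0.07 (limma adjusted p = 1.47e-10).

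The trimming peptidases responded to luteolin in A2780 alone among the calls, and for ERAP2 the lines differed by test. ERAP2 had 0.756, 0.792 and 0.839 TPM with luteolin in ES2, against 0.660, 1.30 and 1.06 TPM with DMSO, which overlapped (−0.15 ± 0.16, limma adjusted p = 0.488). The A2780 levels were 5.43, 5.28 and 6.54 TPM with luteolin, against 3.66, 3.22 and 3.61 TPM with DMSO (0.36 ± 0.13, limma adjusted p = 0.00167). The effect was lower in ES2 by −0.53 ± 0.20 (limma adjusted p = 0.00419). Quantile normalization ended both of these calls (adjusted p = 0.302 and 0.0523). ERAP1 had 11.8, 10.3 and 11.3 TPM with luteolin in ES2, against 12.1, 10.6 and 11.4 TPM with DMSO, and was not called (−0.03 ± 0.17, limma adjusted p = 0.907). In A2780 ERAP1 had 17.9, 20.4 and 18.1 TPM with luteolin, against 14.2, 14.3 and 14.7 TPM with DMSO (0.15 ± 0.11 relative to the median). It was called there as deposited (limma adjusted p = 0.00928) but not after median-of-ratios scaling (0.302), after quantile normalization (0.514) or with coding transcripts alone (0.0703). Its effect was not called different between the lines (limma adjusted p = 0.141), though it was in a fit on the 12 libraries compared (0.0131).

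NLRC5 had 7.11, 4.68 and 5.96 TPM with luteolin in ES2, against 5.58, 6.32 and 5.43 TPM with DMSO, and was not called (0.02 ± 0.12, limma adjusted p = 0.926). In A2780 NLRC5 had 5.84, 7.79 and 5.60 TPM with luteolin, against 10.1, 9.14 and 8.71 TPM with DMSO, and fell (−0.70 ± 0.17, limma adjusted p = 0.0225). That call was lost without A2780 luteolin 1, luteolin 3 or DMSO 1 (adjusted p = 0.0688, 0.0805 and 0.0723) and without the low-value filter (0.0527). With coding transcripts alone it was kept (−0.98 before the median is taken off, limma adjusted p = 6.97e-05). These had 1.77 ± 0.0577 TPM with luteolin and 4.45 ± 0.311 TPM with DMSO in A2780 (SD, n = 3 each). The difference in effect was not called (0.70 ± 0.22 relative to the median, limma adjusted p = 0.0624), though it was after median-of-ratios scaling (0.00769), after quantile normalization (0.00174), without A2780 luteolin 2 (0.0246) or ES2 luteolin 2 (0.0223), and with coding transcripts alone (0.00485).

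Other genes of the pathway were counted by lists written with earlier results known. Beside the counts of these lists, 22.6% of all genes were called higher and 25.8% lower in ES2. In A2780 45.6% of all genes were called higher and 19.9% lower. Of the 5 genes for proteasome activators and assembly, 2 rose and 3 fell in ES2 and 4 fell in A2780. PSME1, a subunit of the interferon-induced PA28 cap, had means of 129 TPM with luteolin and 104 TPM with DMSO in ES2 and of 75.7 TPM with luteolin and 126 TPM with DMSO in A2780. Its effect differed between the lines by 1.24 ± 0.08 relative to the median (limma adjusted p = 2.89e-09). PSME1 was named for the size of its luteolin differences, so that test gives no independent support. Of the class I heavy chain genes that passed the filter, 4 of 4 rose in ES2 and 3 of 4 in A2780 (the fourth was called lower after median-of-ratios scaling), HLA-B among them (9.74 against 4.89 TPM in ES2, 111 against 69.3 TPM in A2780). HLA-F rose to 7.24 TPM with luteolin in A2780, against 2.03 TPM with DMSO. In ES2 the calls of these heavy chains and of B2M were higher, while in A2780 the calls of the heavy chains were higher and that of B2M was lower.

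Of the 5 chaperones of class I loading, 4 fell in ES2, among them calreticulin (CALR), with 622 TPM with luteolin against 968 TPM with DMSO, and 2 rose in A2780, calnexin (CANX, 388 against 230 TPM) and the chaperone HSPA5 (541 against 388 TPM). Of 5 other peptidases that act on peptides, 3 fell in ES2, and in A2780 3 rose and 2 fell, among them THOP1, an oligopeptidase that destroys peptides in the cytosol (166 TPM with luteolin against 227 TPM with DMSO). After median-of-ratios scaling 1 of the 3 rises in A2780 was still called. Of 17 tested genes for interferon signalling and class I promoter factors, 5 rose and 3 fell in ES2, and 8 rose and 6 fell in A2780 (6 rose and 8 fell after median-of-ratios scaling). Of all genes, 48.4% were called in ES2 and 65.5% in A2780, and the ES2 share of this list is near that background. IRF1, an interferon-induced activator of several genes of this pathway, had means of 9.67 TPM with luteolin and 9.60 TPM with DMSO in ES2, and of 8.50 TPM with luteolin and 27.3 TPM with DMSO in A2780. Its effects differed by 1.78 ± 0.15 relative to the median (limma adjusted p = 5.70e-08). IRF1 too was named for the size of its luteolin difference, so its test gives no independent support. IRF9, a DNA-binding subunit of the interferon-activated complex ISGF3, had 7.10 TPM with luteolin and 8.11 TPM with DMSO in ES2 and 15.4 TPM with luteolin and 41.9 TPM with DMSO in A2780. Among the rises, STAT2, which joins IRF9 in that complex, had 15.2 TPM with luteolin and 7.46 TPM with DMSO in A2780. In ES2, RFXAP, a subunit of the RFX complex that binds MHC promoters, rose (7.20 TPM with luteolin against 4.21 TPM with DMSO), and NFYA, a subunit of the CCAAT-binding factor NF-Y, fell (21.9 against 34.7 TPM).

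ERAP1 was selected on the siVRK1 comparison, so all values from it are descriptions without tests, and the counts that follow are not evidence about the list. In ES2, 9 of 10 genes passed the threshold (3 higher, 6 lower), where 54.8% of all genes did (26.8% higher, 28% lower). In A2780, 6 of 9 did (2 higher, 4 lower), where 40.9% of all genes did (13.8% higher, 27% lower). Among all A2780 calls 33.8% were higher as deposited and 49.5% after median-of-ratios scaling. The median difference of the list was −0.38 in ES2 and −0.22 in A2780, beside −0.0022 in ES2 and −0.08 in A2780 over all genes.

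ERAP1 stood at its lowest in the siVRK1 groups of both lines. It had 5.61, 3.01 and 2.61 TPM with siVRK1 in ES2, against 23.6, 27.2 and 23.96 TPM with siCtrl, a difference of −2.50 ± 0.17. In A2780 ERAP1 had 5.23, 5.89 and 3.99 TPM with siVRK1, against 26.6, 23.7 and 24.6 TPM with siCtrl, a difference of −2.12 ± 0.11. The siVRK1 libraries lay far below siCtrl in each line, and ES2 library 3 was the highest of its group. The main coding transcript, ERAP1-202, followed the gene, with 2.26 ± 0.233 TPM with siVRK1 and 21.0 ± 0.327 TPM with siCtrl in ES2, and 3.85 ± 0.352 TPM with siVRK1 and 18.7 ± 0.965 TPM with siCtrl in A2780 (SD, n = 3 each). The siCtrl level is part of this contrast: ERAP1 averaged 24.9 TPM with siCtrl and 11.4 TPM with DMSO in ES2, and 25.0 TPM with siCtrl and 14.4 TPM with DMSO in A2780. Against DMSO, the siVRK1 groups were lower still, at 3.74 ± 1.63 TPM in ES2 and 5.04 ± 0.963 TPM in A2780. In order of level, A2780 siCtrl and ES2 siCtrl overlapped at the top, A2780 luteolin, A2780 DMSO and then ES2 DMSO with ES2 luteolin followed, and the 2 siVRK1 groups overlapped at the bottom.

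The neighbours of ERAP1 did not share the size of its difference. ERAP2 had 1.43, 1.32 and 1.14 TPM with siVRK1 in ES2, against 2.40, 3.52 and 2.12 TPM with siCtrl (−0.66 ± 0.16), and 2.30, 1.37 and 1.68 TPM with siVRK1 in A2780, against 4.31, 4.18 and 4.16 TPM with siCtrl (−0.92 ± 0.13). Against DMSO, ERAP2 was not lower with siVRK1 in ES2, with means of 1.30 TPM with siVRK1 and 1.01 TPM with DMSO and overlapping libraries. In A2780 the siVRK1 mean of ERAP2, 1.78 TPM, lay below its DMSO mean of 3.50 TPM. CAST, which overlaps ERAP1, had 86.7 ± 3.197 TPM with siVRK1 and 107 ± 0.891 TPM with siCtrl in ES2 (−0.30 ± 0.04), and 17.3 ± 0.398 TPM with siVRK1 and 21.5 ± 1.20 TPM with siCtrl in A2780 (−0.30 ± 0.08). With DMSO CAST averaged 85.8 TPM in ES2 and 9.28 TPM in A2780. LNPEP had 6.24 ± 0.413 TPM with siVRK1 and 6.52 ± 0.529 TPM with siCtrl in ES2, and 6.84 ± 0.676 TPM with siVRK1 and 7.87 ± 0.638 TPM with siCtrl in A2780. CAST was higher in ES2 than in A2780 in each library, whereas ERAP1 overlapped between the lines with siCtrl and was lower in ES2 than in A2780 with DMSO (10.6 to 12.1 TPM against 14.2 to 14.7 TPM).

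**Figure D4:**
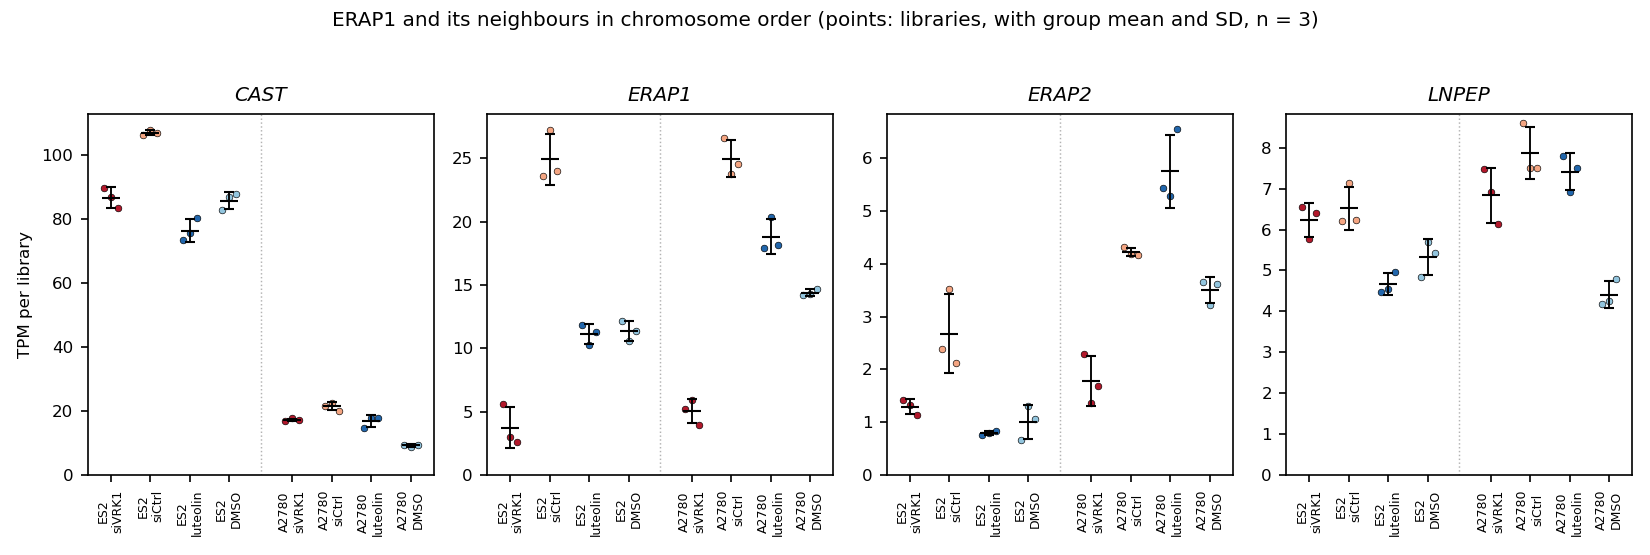
TPM (vertical axes, from 0) of CAST, ERAP1, ERAP2 and LNPEP, in their order along chromosome 5, in each library (points) with group mean and SD (n = 3). ERAP1 falls to 3.74 TPM in ES2 siVRK1 and 5.04 TPM in A2780 siVRK1, while LNPEP keeps between 4.41 and 7.87 TPM in all group means.

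Among 9612 genes with a mean of at least 5 TPM, the genes whose 4 treatment differences lay nearest to those of ERAP1 were VPS4B, an ATPase of membrane scission, BPGM, an enzyme of 2,3-bisphosphoglycerate synthesis in red cells, and SINHCAF, a subunit of the SIN3 corepressor. Their root mean square distances were 0.314, 0.315 and 0.383 on the log2 scale, against a median of 1.64 over all genes ranked. VPS4B averaged 6.98 TPM with siVRK1 and 45.1 TPM with siCtrl in ES2, and 11.4 TPM with siVRK1 and 34.2 TPM with siCtrl in A2780. For PSMB9 the nearest were the lysosomal thiol reductase IFI30, IRF1 and the interferon-induced IFI35, at 0.430, 0.693 and 0.764, against a median of 1.61. IFI30 averaged 14.7 TPM with luteolin and 48.3 TPM with DMSO in A2780. In ES2 the luteolin difference was 0.62 for PSMB9, 0.49 for IFI30, 0.00475 for IRF1 and −0.23 for IFI35. The ES2 levels of IFI30 were low, at 1.28 TPM with luteolin and 0.640 TPM with DMSO.

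Of the inducible proteasome subunits, PSMB8 and PSMB9 were lower with siVRK1 in ES2, while the sum of PSMB10 was not. PSMB9 had 2.31, 2.23 and 2.49 TPM with siVRK1 in ES2, against 9.38, 7.88 and 10.2 TPM with siCtrl (−1.60 ± 0.13), the lowest values of this gene in the series. In A2780 PSMB9 had 12.7, 7.59 and 9.69 TPM with siVRK1, against 12.3, 13.2 and 11.1 TPM with siCtrl, which overlapped (−0.28 ± 0.17). PSMB8 had 28.5, 30.4 and 26.0 TPM with siVRK1 in ES2, against 42.6, 42.5 and 40.4 TPM with siCtrl (−0.55 ± 0.08). The beta 1 share of PSMB9 was 0.895% ± 0.0741 with siVRK1 and 2.61% ± 0.314 with siCtrl in ES2, and 3.64% ± 0.873 with siVRK1 and 3.81% ± 0.398 with siCtrl in A2780 (SD, n = 3 each). The beta 2 share from the PSMB10 sum was 10.1% ± 0.876 with siVRK1 and 7.76% ± 0.539 with siCtrl in ES2, and 16.6% ± 0.177 with siVRK1 and 11.3% ± 1.15 with siCtrl in A2780, higher with siVRK1 in each line, and rests mostly on retained-intron transcripts in 3 of these 4 groups. With DMSO the beta 2 share was 11.1% in ES2 and 16.6% in A2780. The beta 5 share of PSMB8 was 10.2% ± 0.627 with siVRK1 and 14.3% ± 0.536 with siCtrl in ES2.

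For the peptide pump and tapasin, TAP1 was higher with siVRK1 than with siCtrl, and TAP2 and TAPBP were lower. TAP1 had 47.0, 39.5 and 41.9 TPM with siVRK1 in A2780, against 18.7, 17.0 and 20.5 TPM with siCtrl (1.15 ± 0.10). The siCtrl level is part of this contrast, since TAP1 in A2780 averaged 42.8 TPM with siVRK1, 18.7 TPM with siCtrl and 31.9 TPM with DMSO. The TAP1 difference in ES2 was small, with 16.7, 17.3 and 16.3 TPM with siVRK1, against 12.8, 14.4 and 14.8 TPM with siCtrl (0.25 ± 0.07). TAP2 averaged 53.1 ± 3.19 TPM with siVRK1 and 62.0 ± 4.86 TPM with siCtrl in ES2 (−0.22 ± 0.07), and 43.3 ± 6.51 TPM with siVRK1 and 53.2 ± 4.17 TPM with siCtrl in A2780 (−0.30 ± 0.09). The A2780 libraries of TAP2 overlapped. With DMSO TAP2 averaged 55.0 TPM in ES2 and 50.8 TPM in A2780. TAPBP had 11.7, 10.1 and 11.9 TPM with siVRK1 in ES2, against 21.0, 20.1 and 22.4 TPM with siCtrl (−0.86 ± 0.08), and 18.1, 18.1 and 17.0 TPM with siVRK1 in A2780, against 20.4, 22.0 and 20.2 TPM with siCtrl (−0.22 ± 0.07). In ES2 TAPBP averaged 11.2 TPM with siVRK1, 21.2 TPM with siCtrl and 14.4 TPM with DMSO. Its A2780 difference was −0.14 after median-of-ratios scaling and then did not pass the threshold. TAP1 and PSMB9, which start 488 bases apart, thus differed in opposite directions in ES2, while in A2780 the PSMB9 libraries overlapped. B2M averaged 1352 ± 41.8 TPM with siVRK1 and 1209 ± 31.7 TPM with siCtrl in ES2 (0.16 ± 0.04), and 974 ± 55.3 TPM with siVRK1 and 965 ± 14.8 TPM with siCtrl in A2780. NLRC5 had 7.79, 7.79 and 8.58 TPM with siVRK1 in ES2, against 6.91, 5.66 and 6.16 TPM with siCtrl (0.32 ± 0.12). With coding transcripts alone the ES2 difference was 0.02. In A2780 NLRC5 had 13.7, 7.76 and 8.61 TPM with siVRK1, against 9.34, 9.43 and 8.55 TPM with siCtrl, where a single siVRK1 library, number 1, stood above the rest. Without it the A2780 difference of NLRC5 was −0.14, against 0.09 with it, and that of B2M −0.0322, against 0.0123.

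PSMB10 is where the sum over transcripts and the protein-coding transcripts part ways. Its coding transcripts had 9.25, 11.2 and 9.82 TPM with siVRK1 in ES2, against 23.8, 21.9 and 20.6 TPM with siCtrl, and its retained-intron transcripts had 27.0, 31.2 and 25.2 TPM with siVRK1, against 10.4, 12.7 and 9.31 TPM with siCtrl. Both kinds were clearly apart, in opposite directions, while the gene's sum was 37.9 ± 3.93 TPM with siVRK1 and 32.9 ± 2.63 TPM with siCtrl. The coding share was 26.6% ± 1.29 with siVRK1 and 67.2% ± 3.41 with siCtrl in ES2, and 10.03% ± 2.44 with siVRK1 and 22.6% ± 4.73 with siCtrl in A2780 (SD, n = 3 each). Among the ES2 groups siCtrl stood apart, since the mean coding share was 30.5% with DMSO and 27.0% with luteolin. Against ES2 DMSO, siVRK1 had similar coding means (10.1 and 9.65 TPM) and a higher retained-intron mean (27.8 against 22.4 TPM). In A2780 the mean coding share with DMSO, 20.8%, lay near that with siCtrl, and siVRK1 was lower than both. With coding transcripts alone, an alternative added after seeing the data, the siVRK1 difference of PSMB10 was −1.06 in ES2 and −0.64 in A2780, where the sum had given 0.20 and 0.44. Most of the retained-intron TPM lay on a single transcript of 591 bases, while the main coding transcript has 1218 bases.

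**Figure D5:**
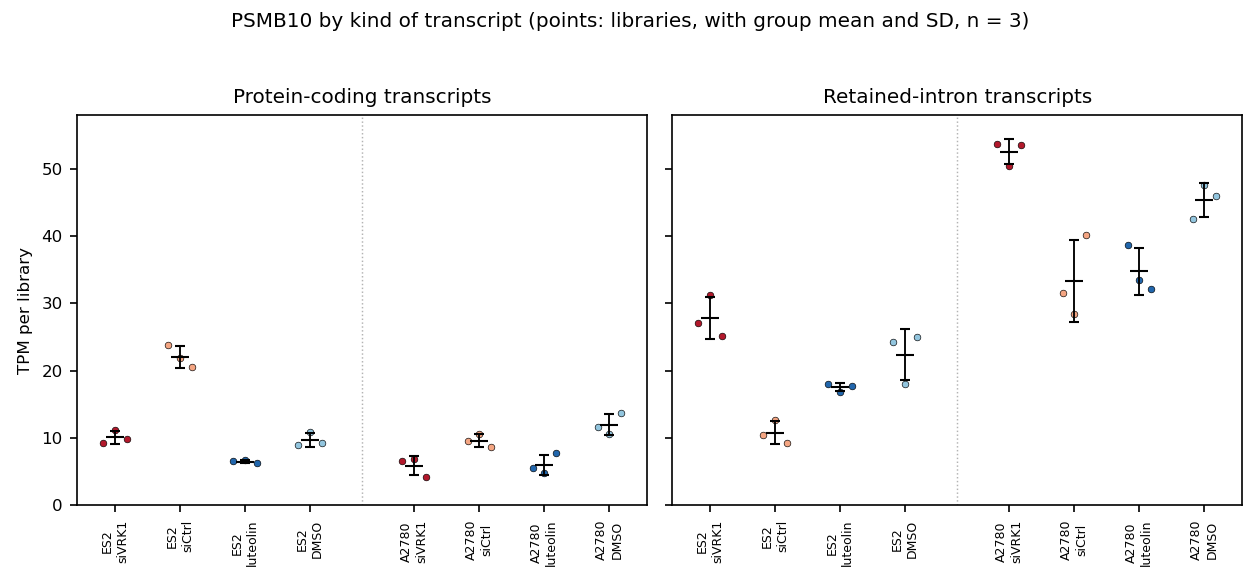
TPM (shared vertical axis, from 0) of the protein-coding (left) and retained-intron (right) transcripts of PSMB10 in each library (points), with group mean and SD (n = 3). Coding transcripts are highest in ES2 siCtrl, at 20.6 to 23.8 TPM, the group in which retained-intron transcripts are lowest, at 9.31 to 12.7 TPM.

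In the luteolin comparison the coding sum of PSMB10 fell in both lines. It was 6.47 ± 0.245 TPM with luteolin and 9.65 ± 1.05 TPM with DMSO in ES2 (−0.51, limma adjusted p = 0.000642), and 6.03 ± 1.49 TPM with luteolin and 11.9 ± 1.57 TPM with DMSO in A2780 (−0.89, limma adjusted p = 0.000616). The retained-intron sum, which was not tested, was 17.5 ± 0.599 TPM with luteolin and 22.4 ± 3.7997 TPM with DMSO in ES2, and 34.8 ± 3.48 TPM with luteolin and 45.4 ± 2.57 TPM with DMSO in A2780. Between the control groups of the lines the direction turned. The sum over transcripts was lower in ES2, by −0.60 ± 0.06 as deposited (limma adjusted p = 1.06e-08) and −0.43 relative to the median. The coding transcripts were higher in ES2 (0.43 as deposited, limma adjusted p = 0.000789).

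Finally, siCtrl was set beside DMSO, since these controls differ in more than the siRNA. The comparison shares the siCtrl libraries with the siVRK1 comparison and the DMSO libraries with the luteolin comparison, so it is not independent of either. ERAP1 is left out of the counts because it was selected on these siCtrl libraries. In ES2, 5 of the 9 other genes were called, each higher with siCtrl, against 56.2% of all genes called (34.7% higher, 21.5% lower). In A2780, 4 of the 8 others were called, each lower, against 58.1% of all genes (47.2% higher, 10.9% lower). The median of all genes in A2780 stood at 0.24, and median-of-ratios scaling moved it to 0.00 and the share of higher calls among all calls from 81.3% to 46.0%. Where an A2780 value is given relative to that median, its adjusted p-value belongs to the difference before the median is taken off. In ES2 that share moved from 61.7% to 53.3%.

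ERAP1 was higher with siCtrl than with DMSO in both lines, by 1.07 ± 0.17 in ES2 and by 0.51 ± 0.11 relative to the median in A2780, with no overlap; no test is given because these siCtrl libraries chose the gene. ERAP2 rose with siCtrl in ES2, to 2.40, 3.52 and 2.12 TPM, against 0.660, 1.30 and 1.06 TPM with DMSO (0.87 ± 0.16, limma adjusted p = 0.000676). TAPBP (0.53 ± 0.08, limma adjusted p = 0.000115), B2M (0.41 ± 0.04, 2.00e-06) and TAP1 (0.41 ± 0.07, 0.000238) rose in ES2 as well, and PSMB8 by 0.24 ± 0.08 (0.0193). That call of PSMB8 ended after median-of-ratios scaling (0.0614), after quantile normalization (0.207) and without ES2 siCtrl 1, siCtrl 2 or DMSO 3 (0.0539 to 0.0852). PSMB10 was not called (limma adjusted p = 0.735), but its coding transcripts were higher with siCtrl (1.12, adjusted p = 6.80e-07), at 22.1 ± 1.61 TPM with siCtrl and 9.65 ± 1.05 TPM with DMSO. TAP2 was not called either (0.17 ± 0.07, limma adjusted p = 0.0627) except without ES2 DMSO 2 (0.0345). In A2780, by contrast, PSMB9 fell to 12.3, 13.2 and 11.1 TPM with siCtrl, against 34.4, 31.8 and 25.5 TPM with DMSO (−1.50 ± 0.17 relative to the median, limma adjusted p = 6.44e-05). These DMSO libraries are part of the PSMB9 fall with luteolin that was known when the list was made. The PSMB9 test here, which is among the calls counted above, thus gives no independent support. TAP1 fell in A2780 by 0.98 on the log2 scale relative to the median (SE 0.10, limma adjusted p = 8.76e-05). PSMB10 fell there by 0.66 relative to the median (SE 0.08, limma adjusted p = 0.000876), a call that was lost with coding transcripts alone (0.170). B2M in A2780 had 953, 960 and 982 TPM with siCtrl, against 1102, 982 and 1125 TPM with DMSO (−0.39 ± 0.05 relative to the median). As deposited the B2M difference was −0.15 (limma adjusted p = 0.0279). That call was lost under quantile normalization (0.880), without the low-value filter (0.0622) and without each of A2780 siCtrl 1, siCtrl 2, DMSO 1 and DMSO 3 (0.0668 to 0.101). After median-of-ratios scaling B2M was called lower as well (−0.42). TAP2 and TAPBP were not called in A2780 as deposited (limma adjusted p = 0.578 and 0.733), but after median-of-ratios scaling both were called lower with siCtrl (−0.20 and −0.23, adjusted p = 0.0354 and 0.0149). The high A2780 DMSO level of PSMB9 was apart from the 3 other A2780 groups, which lay between 4.07 and 13.2 TPM.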

How the data were processed

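The deposited table gives TPM per transcript for 24 libraries. Per the submitters' processing notes, the authors used FastQC and kallisto with the human build hg19; versions, the transcript set and the strand setting were not among them. The TPM of each library add to 1000000. Depth is therefore unknown, counting intervals are not given, and the spread of the 3 libraries sets the precision. Of 193845 lines, 1958 repeated another with identical values and were used once. TPM were added per symbol; 19 transcripts with several symbols and 9542 without one, 0.514% to 1.03% of a library, were left out. Groups follow the titles, since cell line and treatment labels count up within groups (A2781, siVRK2). Columns of 2 ES2 siVRK1 libraries share a name and are called a and b here; in lists, ES2 siVRK1 values run library 3, a, b and others run 1 to 3.

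Tests were limma-trend (limma 3.58.1, R 4.3.3) on log2(TPM + 1), two-sided, on genes with at least 1 TPM in at least 3 libraries of the fit, called at 0.05 after Benjamini-Hochberg adjustment over the whole table of tested genes. Within-line comparisons used the 12 libraries of the line, comparisons between lines all 24. The log scale understates changes of genes near 1 TPM. The fit was tested on simulated data. Members and lists were chosen with earlier results of these data known. The text names all 10 members, the constitutive subunits, for ERAP1 and PSMB9 the 3 genes nearest by root mean square distance, up to 2 rises and 2 falls per other list and luteolin comparison, and VRK1 and neighbours of ERAP1; PTPRC and the other cell type genes were named as markers. Some genes are not reported here. Alternatives were quantile normalization, scaling by median of ratios, pseudocounts of 0.1 and 5, a low-value filter of 5 TPM or none, a fit on the groups compared, a replicate block, leaving out each library, and, added after seeing the data, protein-coding transcripts alone for PSMB10, ERAP1, ERAP2 and NLRC5. Promoter windows are from RefSeq (GRCh38.p14) and gene spans from GENCODE release 29.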

Additional observations from a re-analysis of the deposited data

Results flagged for a closer look

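The luteolin effect of 4 genes differed between the lines by the test of the difference itself, over all 24 libraries, in a comparison in which 50.5% of all genes were called. Relative to the median of all genes, the effect in ES2 minus that in A2780 was 3.31 for PSMB9, 1.26 for B2M, 0.59 for TAPBP and −0.53 for ERAP2. PSMB9 and B2M were called in opposite directions in the lines, TAPBP was called in ES2 only and ERAP2 in A2780 only. The A2780 fall of PSMB9 was known when the genes were listed, so its test gives no independent support. No cause was tested.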

How the results depend on the processing

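Depth is unknown. The counts of members called stayed within 1.5 times their values under each alternative run (131 recomputed counts). Of the tested differences, 881 recomputed values kept their direction and their side of the threshold, 27 lost the call, 12 gained it and 33 changed sign; of the siVRK1 differences, 243 stayed within 1 SD and 20 moved further, and 4 in all changed sign. The cause of a change was not tested, except that scaling moves the median of all genes.

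Signs turned under both scalings, with the value for median-of-ratios before that for quantile normalization, for TAPBP in A2780 luteolin (−0.10 and −0.0652), for TAP2 in the luteolin difference between lines (0.0718 and 0.0297), and in siCtrl against DMSO for TAP2 (−0.20 and −0.14), TAPBP (−0.23 and −0.26) and ERAP2 (−0.00026 and −0.0489) in A2780 and PSMB10 in ES2 (−0.0296 and −0.0862). Quantile normalization also turned NLRC5 in ES2 luteolin (−0.0726), PSMB8 in the luteolin difference (0.26) and B2M in the control levels (−0.00340). A pseudocount of 5 turned PSMB8 (0.17) and TAP1 (−0.0529) in the luteolin difference. Coding transcripts alone turned NLRC5 in ES2 luteolin (−0.22) and PSMB10 in the control levels (0.43), in ES2 siVRK1 (−1.06) and in A2780 siVRK1 (−0.64).

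Leaving out 1 library turned B2M (−0.0322 to 0.0470) and NLRC5 (−0.139 to 0.235) in A2780 siVRK1 and 7 tested differences, none of them called: PSMB8 (−0.212 to 0.0608) and TAP1 (−0.0517 to 0.126) in the luteolin difference, ERAP1 (−0.0741 to 0.0237) and NLRC5 (−0.106 to 0.151) in ES2 luteolin, PSMB10 in ES2 siCtrl against DMSO (−0.0344 to 0.103), and TAPBP (−0.00606 to 0.0527) and NLRC5 (−0.0704 to 0.0252) in A2780 siCtrl against DMSO. The number of members called then lay between 6 and 7 for ES2 luteolin and between 7 and 9 for A2780 luteolin.

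Same-numbered libraries did not deviate together (correlations across genes of −0.0532 to 0.0414 between groups), so no pairing by number was seen. ES2 siVRK1 was not examined. Each deviation is from a mean of only 3 libraries, so low correlations cannot exclude a shared culture. With the replicate block 7 members were called in ES2 luteolin and 8 in A2780 luteolin, as without it. Under the block ERAP1 was called in the luteolin difference (−0.39, limma adjusted p = 0.0368) and TAP2 was not called in the control levels (0.426). The block could not be fitted for ES2 siVRK1, where 2 columns carry no number.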
